A study of Homo sapiens with 6 samples.

Results

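The NRF2 pathway and antioxidant genes of U87-MG cells, an established human glioblastoma line, were examined in 3 negative control (NC) libraries and 3 libraries labelled CHRM3 knockdown (KD). The set held 42 genes chosen by function. It covered the NRF2 pathway and the glutathione, thioredoxin, peroxiredoxin, pentose phosphate, aldo-keto reductase and ferritin genes. Each gene was found by its Ensembl identifier among the 61731 genes and loci of the deposited table, which gives levels in TPM, a share of the transcripts of a library that takes length into account. For 40 of the 42 genes the mean over the 6 libraries reached 1 TPM, the limit for testing.

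The cells were infected with lentivirus that carried a CHRM3 knockdown sequence or a negative control. CHRM3 encodes the muscarinic acetylcholine receptor M3. The sources do not say which of the study's knockdown sequences these libraries carry, nor whether the numbered libraries were grown as separate cultures. The knockdown numbers could also stand for different sequences. The p-values therefore measure the spread between these libraries, which may be technical. The sample labels name a SMARTer library kit and an RNeasy extraction, whereas the methods name a TruSeq kit and TRIzol.

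The level of CHRM3 was 0.02, 0.09 and 0.13 TPM in NC replicates 1 to 3 and 0.13, 0.01 and 0.02 TPM in KD-labelled replicates 1 to 3. The groups overlapped near the rounding step of the table, so a reduction was not detectable in these libraries, and their groups were taken from the labels. Vimentin was between 6528 and 6663 TPM in NC and between 7244 and 7451 TPM in the KD-labelled libraries (limma adjusted p = 0.000416). Nestin (NES) was between 1.98 and 2.54 TPM in NC and between 3.23 and 4.01 TPM in the KD-labelled libraries (limma adjusted p = 0.0151). The glial and stem cell markers GFAP, OLIG2, S100B and SOX2 were at or below 1.46 TPM in each library. The summed leukocyte markers were at most 0.63 TPM and the summed endothelial markers at most 0.25 TPM, with TYROBP, CD3E and CLDN5 listed at 0 in all 6 libraries. The summed neuronal markers, nearly all SNAP25, were between 9.42 and 10.9 TPM in NC and between 14.1 and 14.6 TPM in the KD-labelled libraries. Mitochondrial transcripts took 5.40% ± 0.0768 of all TPM in NC and 4.57% ± 0.259 in the KD-labelled libraries (SD, n = 3 each), without overlap. The part of these marker shifts in the results was not tested. In such bulk samples, fewer cells of a type and less RNA per cell cannot be told apart.

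NRF2, encoded by NFE2L2, is a transcription factor that KEAP1 holds and marks for degradation in resting cells. Oxidants and electrophiles modify KEAP1, NRF2 then accumulates, pairs with a small MAF protein and binds antioxidant response elements. Its known targets make glutathione, reduce thioredoxin, supply NADPH, store iron and reduce quinones and carbonyls. NRF2 is controlled largely at the protein level, so the messenger RNA of NFE2L2 is not a measure of its activity. In glioblastoma, as in other cancers, this pathway is known for its part in resistance to oxidants and drugs.

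The antioxidant response element has the core TGACNNNGC, where N is any base. This core was searched on both strands of RefSeq promoters (build GRCh38.p14), each from 250 bases before to 50 bases after a transcription start. RefSeq promoters were matched by symbol for 32 of the 42 genes, with 44 promoters in all. The core was present in 8 of these 44 promoters (18.2%), against 13.3% of all 34943 promoters. The shorter pattern TGANNNNGC was in 47.7% of the 44 promoters and in 41.8% of all promoters. TGACTCA, the AP-1 site that can overlap the core, was in 6.82% and 4.96%. The 8 promoters belonged to TXNRD1, KEAP1, GCLM, GSTP1, PGD, IDH1 and ME1. Windows of 30 bases are shown for TXNRD1, which had the largest fall of these genes, and for KEAP1, the negative regulator of NRF2. Others are shown for PGD and GSTP1, which also fell, and for GCLM, a textbook target whose level did not pass the test. Each window is written 5′ to 3′ on the strand that carries the core, and the capitals mark the core.
TXNRD1, chr12:104215670-104215699, plus strand: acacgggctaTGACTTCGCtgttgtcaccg
TXNRD1, chr12:104215760-104215789, minus strand: ctgtgggaacTGACGGAGCcgaaggacgcc
TXNRD1, other promoter, chr12:104286919-104286948, minus strand: agagtcagaaTGACAAAGCagaaatccact
KEAP1, chr19:10502806-10502835, minus strand: acttttattgTGACACGGCgggcgcccggc
KEAP1, chr19:10502784-10502813, plus strand: caggtcaccaTGACTAAGCagagccgggcg
GCLM, chr1:93909446-93909475, plus strand: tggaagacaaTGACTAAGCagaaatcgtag
GSTP1, chr11:67583736-67583765, plus strand: gccggcgccgTGACTCAGCactggggcgga
PGD, chr1:10398852-10398881, minus strand: agcacctagaTGACATTGCcccggcgaggc
The GSTP1 core contains the AP-1 site. A match describes letters only, and promoters without one, such as that of NQO1, were searched in this window alone.

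Most of these genes were lower in the KD-labelled libraries. Of the 40 tested genes, 30 passed the limma test (adjusted p under 0.05 over all genes tested), 23 of them lower and 7 higher. Among all 13722 tested genes 36.1% passed, 24.0% lower and 12.1% higher. The genes that rose were NFE2L2, HMOX1, BLVRB, GSS, GPX1, PRDX5 and CAT. The median log2 fold change of log2(TPM + 1) was -0.22 for the 40 genes and -0.06 for all tested genes. The groups did not overlap for 34 of the 40 genes, 26 lower and 8 higher. For all tested genes the groups did not overlap in 50.2%, with 32.8% lower and 17.4% higher. The excess of lower calls over all genes depended on the scaling. Under median-of-ratios scaling, 2245 of all tested genes were lower and 2306 higher, against 19 lower and 9 higher of the listed genes. Quantile normalization gave 2229 lower and 2233 higher over all genes, and 21 lower and 8 higher among the listed genes. With mitochondrial transcripts left out and TPM rescaled, 3503 of all tested genes were lower and 1563 higher, against 26 and 6 of the listed genes.

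Many of these genes are abundant, and abundant genes passed more often. Of the 22 genes whose mean reached 100 TPM, 19 passed, 15 lower and 4 higher, against 65.0% of all 1424 genes at that level, 38.1% lower and 26.8% higher. Most changes were small. AKR1C1 and AKR1C2 passed with a log2 fold change beyond 1 in size, both lower. Of all tested genes 1.87% passed at that size, and 1.20% were lower. GSTM3, at 0 to 0.06 TPM, and ME1, at 0 to 0.02 TPM, were too low to test.

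**Figure D1:**
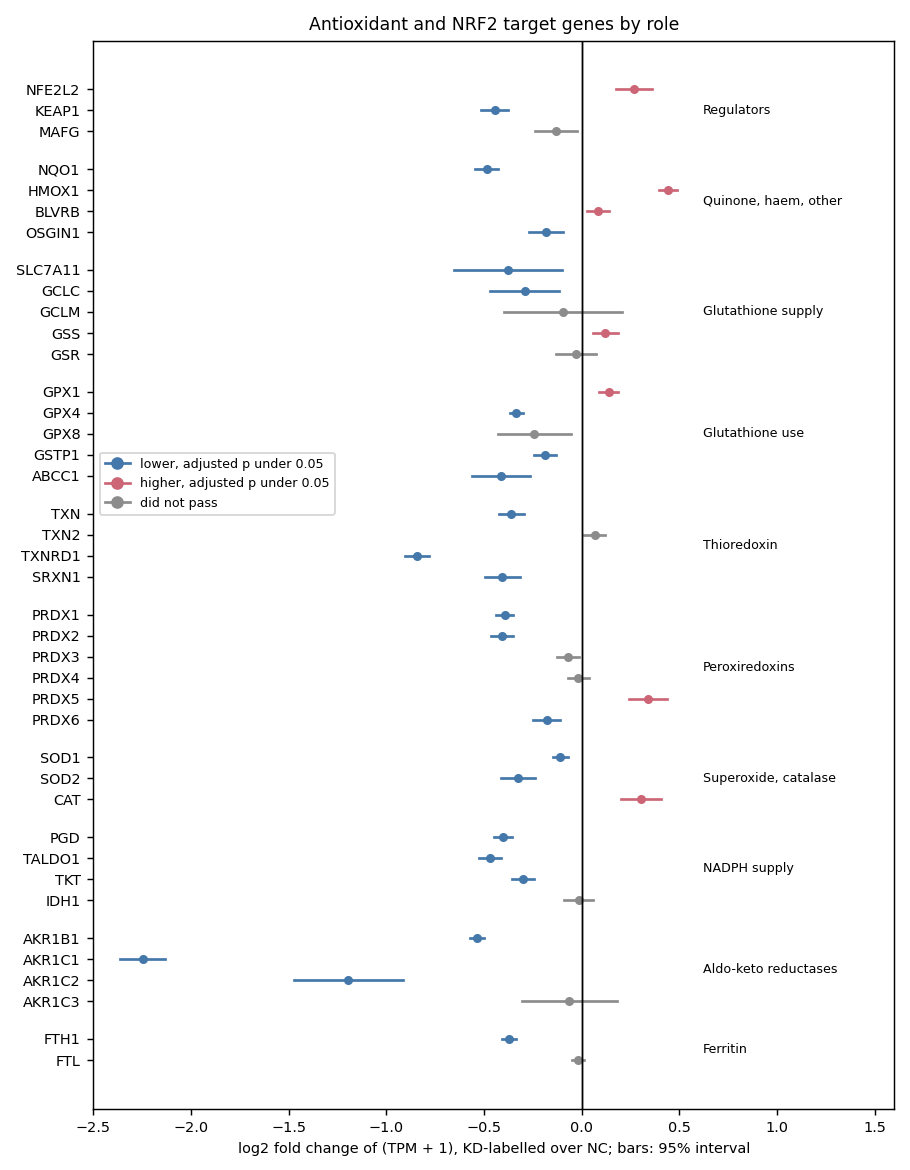
Log2 fold change of TPM + 1 for the 40 tested genes, KD-labelled over NC, grouped by role; points are limma estimates from 3 libraries per group and bars are 95% intervals. Lower genes lie to the left, from AKR1C1 at -2.25, and the 7 genes that rose reach 0.44 for HMOX1.

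The summed level of the 42 genes was 27104 ± 147 TPM in NC and 23055 ± 157 TPM in the KD-labelled libraries (SD, n = 3 each). This was 2.71% and 2.31% of all TPM. The 2 ferritin chains made up most of the sum. Without them, the level was 10781 ± 46.7 TPM in NC and 9087 ± 64.3 TPM in the KD-labelled libraries, a ratio of 0.843. The groups did not overlap in either sum, and sums are given as descriptions without a test.

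The regulator NFE2L2 (ENSG00000116044, chromosome 2 from 177227595 to 177392697) and its inhibitor KEAP1 (ENSG00000079999, chromosome 19 from 10486120 to 10503741) moved in opposite directions. The level of NFE2L2 was 44.3, 42.1 and 44.7 TPM in NC replicates 1 to 3 and 53.0, 54.2 and 51.0 TPM in KD-labelled replicates 1 to 3. Each KD-labelled library was above each NC library. It rose by 0.27 on the log2 scale (limma adjusted p = 0.00253, standard error 0.0381). KEAP1 stood at 77.6, 79.7 and 80.0 TPM in NC and 59.2, 57.6 and 56.6 TPM in the KD-labelled libraries, all 3 of which were lower than each NC library. It fell by 0.45 on the log2 scale (standard error 0.0288, limma adjusted p = 0.000107). The ratio of KEAP1 to NFE2L2 within a library was 1.81 ± 0.0734 in NC and 1.10 ± 0.0294 in the KD-labelled libraries (SD, n = 3 each). MAFG, a small MAF partner of NRF2, was 14.2 TPM in NC and 12.8 TPM in the KD-labelled libraries and did not pass (adjusted p = 0.0627). NFE2L2 overlaps AGPS on the opposite strand, at 23.7 TPM in NC and 25.9 TPM in the KD-labelled libraries, and the strand used in counting is not stated.

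The classic target genes NQO1 and HMOX1 also diverged. NQO1 (chromosome 16 from 69706996 to 69726951) encodes a quinone reductase, and its level was 329, 329 and 331 TPM in NC and 230.1, 243 and 233 TPM in the KD-labelled libraries. HMOX1 (chromosome 22 from 35380361 to 35394214) encodes the inducible haem oxygenase, and its level was 281, 276 and 282 TPM in NC and 385, 379 and 375 TPM in the KD-labelled libraries. The NC libraries were thus the higher group for NQO1 and the lower group for HMOX1, with no overlap in either gene. NQO1 fell by 0.49 on the log2 scale (standard error 0.0243, limma adjusted p = 4.02e-05), and HMOX1 rose by 0.44 (standard error 0.0190, limma adjusted p = 2.22e-05). HMOX1 stood below NQO1 in each NC library and above it in each KD-labelled library, with a ratio of 0.849 ± 0.00868 and 1.62 ± 0.0549 (SD, n = 3 each). As TPM is per length, levels of different genes can be set side by side. BLVRB, which encodes biliverdin reductase B, was 259 TPM in NC and 275 TPM in the KD-labelled libraries (log2 fold change 0.08, adjusted p = 0.0344). This narrow rise did not pass with its pseudogene BLVRBP1 added (adjusted p = 0.341). The pseudogene was listed at 19.95 TPM in a single NC library. OSGIN1, an oxidative stress response gene, fell by 0.18 on the log2 scale (adjusted p = 0.00899) and did not pass under median-of-ratios scaling (adjusted p = 0.0518).

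**Figure D2:**
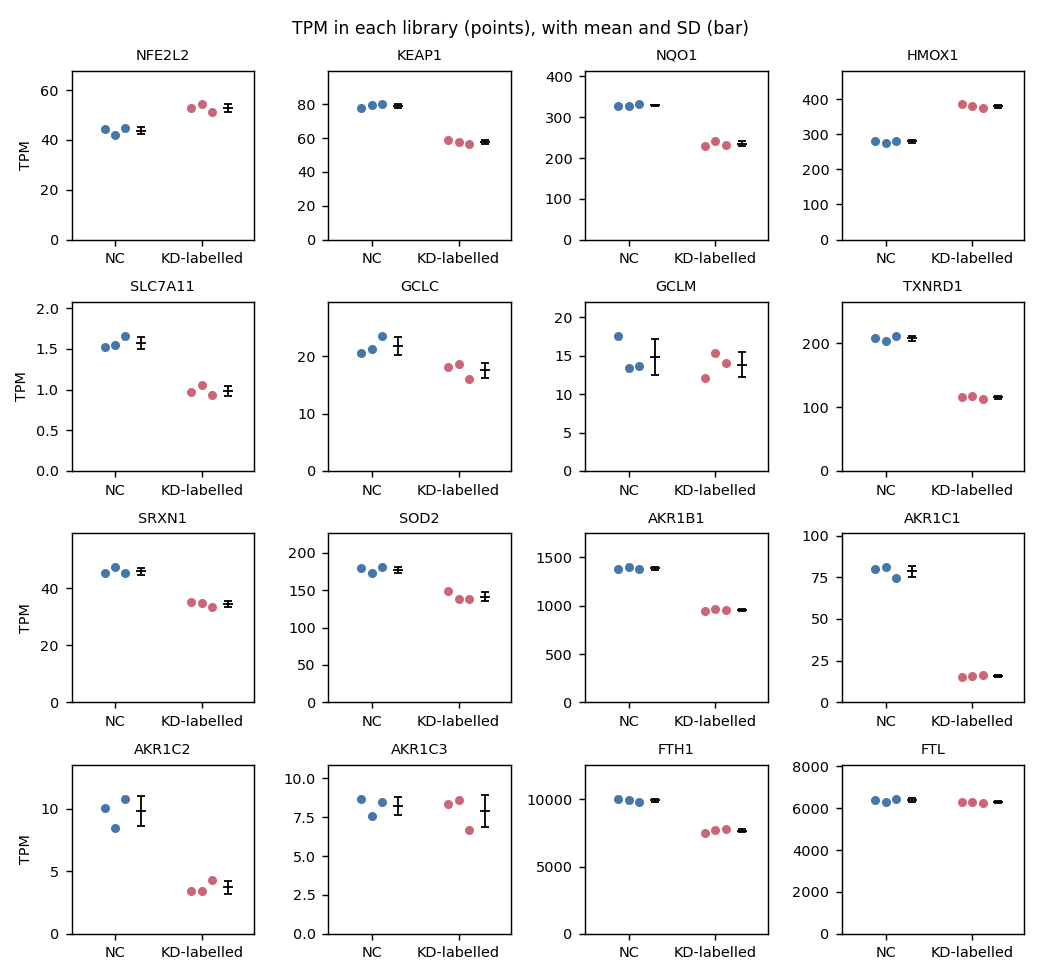
TPM of 16 genes in each library (points, replicates 1 to 3 from left to right in each group), with the mean and SD of 3 libraries beside them; every axis starts at 0. AKR1C1 falls from 78.5 to 15.8 TPM, and the groups overlap for GCLM, AKR1C3 and FTL.

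Among the 5 genes that supply and recycle glutathione, 2 fell, 1 rose and 2 did not pass. Over all tested genes, 24.0% were lower and 12.1% higher. SLC7A11, the cystine importer that feeds the pathway, was scarce, at 1.52, 1.55 and 1.66 TPM in NC and 0.97, 1.05 and 0.93 TPM in the KD-labelled libraries. GCLC (chromosome 6 from 53497341 to 53616970), the catalytic subunit of glutamate-cysteine ligase, was 20.6, 21.3 and 23.6 TPM in NC and 18.1, 18.6 and 16.1 TPM in the KD-labelled libraries. Both were lower in each KD-labelled library than in each NC library. SLC7A11 fell by 0.38 on the log2 scale (standard error 0.116, limma adjusted p = 0.0447) and GCLC by 0.29 (standard error 0.0734, limma adjusted p = 0.0227). GCLM, the modifier subunit of the same enzyme, was 17.6, 13.4 and 13.7 TPM in NC and 12.1, 15.3 and 14.0 TPM in the KD-labelled libraries. Its groups overlapped, NC replicate 1 was the highest library, and the gene did not pass (log2 fold change -0.10, 95% interval -0.40 to 0.21, adjusted p = 0.591). GSS, which joins glycine to complete glutathione, rose by 0.12 on the log2 scale (adjusted p = 0.0128). GSR, the reductase that recycles oxidised glutathione, stood at 27.6 TPM in NC and 27.0 TPM in the KD-labelled libraries (adjusted p = 0.608). The summed level of these 5 genes was 161 ± 2.19 TPM in NC and 163 ± 2.37 TPM in the KD-labelled libraries (SD, n = 3 each), and the groups overlapped. GSS made up most of this sum, at 95.6 TPM in NC and 104.1 TPM in the KD-labelled libraries.

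The calls of SLC7A11 and GCLC were narrow. SLC7A11 did not pass when any single library was left out, with adjusted p from 0.0811 to 0.116. GCLC did not pass without NC replicate 2 (0.0517), NC replicate 3 (0.0618) or KD-labelled replicate 3 (0.0541). Nor did either gene pass with all 6 libraries under median-of-ratios scaling (limma adjusted p = 0.0646 for SLC7A11 and 0.0523 for GCLC). Quantile normalization gave 0.0858 and 0.0591. An antisense gene on the opposite strand of GCLC, AL033397.2, was 12.3 TPM in NC and 3.60 TPM in the KD-labelled libraries. Without a stated strand, reads from a stretch common to both genes could count for either. The overlap was read from whole gene spans, and overlap of exons was not examined.

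Among the genes that use glutathione, GPX1 and GPX4 separated. Both are selenium-containing peroxidases, GPX1 reducing hydrogen peroxide and GPX4 reducing lipid hydroperoxides. GPX4 fell from 645 ± 1.39 to 511 ± 3.50 TPM (SD, n = 3 each; log2 fold change -0.34, limma adjusted p = 2.00e-05). GPX1 rose from 647 ± 13.8 to 712 ± 8.51 TPM (SD, n = 3 each; log2 fold change 0.14, limma adjusted p = 0.00293). Their ratio, GPX4 to GPX1, was 0.997 in NC and 0.717 in the KD-labelled libraries. GSTP1, the abundant glutathione transferase of these cells, fell from 1014 to 890.4 TPM (adjusted p = 0.00138). ABCC1, which exports glutathione conjugates, fell from 16.1 to 11.9 TPM (adjusted p = 0.00304). GPX8, a peroxidase of the endoplasmic reticulum, was 63.4 TPM in NC and 53.7 TPM in the KD-labelled libraries and missed the threshold (adjusted p = 0.0502). It passed without KD-labelled replicate 1 (log2 fold change -0.15, adjusted p = 0.0334), where the difference was smaller, and without KD-labelled replicate 2 (-0.31, adjusted p = 0.0248).

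The 3 listed cytosolic genes of the thioredoxin system fell. TXNRD1 (ENSG00000198431, chromosome 12 from 104215779 to 104350305), the reductase that uses NADPH to recycle thioredoxin and whose promoter windows are printed above, was 208, 204 and 212 TPM in NC and 117, 117 and 113 TPM in the KD-labelled libraries. The lowest NC library was far above the highest KD-labelled library. TXNRD1 fell by 44.4% in mean TPM (log2 fold change of TPM + 1 -0.84, standard error 0.0252, limma adjusted p = 5.61e-06). SRXN1, which restores overoxidised peroxiredoxins, was 45.4, 47.4 and 45.3 TPM in NC and 35.4, 34.8 and 33.3 TPM in the KD-labelled libraries, again without overlap. It fell by 0.41 on the log2 scale (standard error 0.0369, limma adjusted p = 0.000398). Of the 150-base stretches of the SRXN1 transcript, 84.2% also occur in an overlapping locus, AL121758.1, so its reads could be split. TXN, thioredoxin itself, fell from 1049 ± 3.15 to 818 ± 29.6 TPM (SD, n = 3 each; adjusted p = 0.000182). The mitochondrial thioredoxin TXN2 was 86.1 TPM in NC and 90.2 TPM in the KD-labelled libraries and did not pass (log2 fold change 0.07, adjusted p = 0.0614), while under median-of-ratios scaling it was 0.14 higher (adjusted p = 0.00556). The 4 genes summed to 1389 TPM in NC and 1058 TPM in the KD-labelled libraries, and the ratio of TXNRD1 to TXN was 0.198 and 0.142. Outside the listed genes, TXNRD2, the mitochondrial thioredoxin reductase, fell from 52.4 to 37.8 TPM without overlap (log2 fold change -0.46, adjusted p = 0.000218). The fall was thus not confined to cytosolic genes.

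The 6 peroxiredoxins, which reduce peroxides with electrons from thioredoxin or glutathione, did not all move the same way. All 6 had a mean of at least 100 TPM, where 65.0% of all tested genes passed, 38.1% lower and 26.8% higher. Of the peroxiredoxins a similar 66.7% passed, with 3 lower, 1 higher and 2 that did not pass. PRDX1, mainly cytosolic and the most abundant of them, fell from 1327 ± 23.6 to 1009 ± 12.1 TPM (SD, n = 3 each; log2 fold change -0.39, adjusted p = 2.86e-05). PRDX2, also cytosolic, fell from 352 to 265 TPM (log2 fold change -0.41, adjusted p = 7.20e-05), and PRDX6 fell from 167 to 147 TPM (adjusted p = 0.00409). PRDX5, found in mitochondria, peroxisomes and cytosol, rose from 281 ± 12.8 to 356 ± 11.4 TPM (SD, n = 3 each; log2 fold change 0.34, adjusted p = 0.00111). The mitochondrial PRDX3 was 189 TPM in NC and 180.2 TPM in the KD-labelled libraries (adjusted p = 0.0520). It passed without KD-labelled replicate 2 (log2 fold change -0.09, adjusted p = 0.0350). Of the 19 alternatives that varied the data or the fit, PRDX3 passed in 4. Its log2 fold change there was between -0.09 and -0.0009, with limma adjusted p up to 0.979. PRDX4 of the secretory pathway was 229 TPM in NC and 226 TPM in the KD-labelled libraries (adjusted p = 0.556). The ratio of PRDX1 to PRDX5 was 4.73 ± 0.139 in NC and 2.84 ± 0.0972 in the KD-labelled libraries (SD, n = 3 each).

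SOD1 and SOD2 fell while catalase rose. SOD2, the manganese enzyme of mitochondria, was 179, 173 and 181 TPM in NC and 148, 138 and 138 TPM in the KD-labelled libraries. All 3 KD-labelled libraries lay below the NC libraries, and SOD2 fell by 0.33 on the log2 scale (standard error 0.0363, limma adjusted p = 0.000884). SOD1, the copper and zinc enzyme of the cytosol, fell from 474 to 439 TPM (log2 fold change -0.11, adjusted p = 0.00248), and did not pass under median-of-ratios scaling (-0.04, adjusted p = 0.0947). CAT, which breaks down hydrogen peroxide in peroxisomes, rose from 26.4 to 32.8 TPM (log2 fold change 0.30, adjusted p = 0.00238). SOD2 overlaps WTAP on the opposite strand, at 54.8 TPM in NC and 48.7 TPM in the KD-labelled libraries.

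The 3 pentose phosphate enzymes among the listed NADPH-supplying genes fell, but the pathway did not fall as a whole. PGD, the dehydrogenase of 6-phosphogluconate that yields NADPH, fell from 199 ± 2.48 to 150.5 ± 0.0351 TPM (SD, n = 3 each; log2 fold change -0.40, adjusted p = 3.26e-05). TALDO1 and TKT, which carry out the non-oxidative branch, fell from 293 to 211 TPM (adjusted p = 3.77e-05) and from 555 to 451 TPM (adjusted p = 0.000225). IDH1, which makes NADPH from isocitrate in the cytosol, was 42.5 TPM in NC and 42.0 TPM in the KD-labelled libraries (log2 fold change -0.02, 95% interval -0.09 to 0.06, adjusted p = 0.718). Outside the listed genes, the pentose phosphate enzyme PGLS, which acts just before PGD, rose from 66.8 to 91.4 TPM (log2 fold change 0.44, adjusted p = 0.00587). RPE of the same pathway rose narrowly (0.23, adjusted p = 0.0226), and RPIA did not pass (0.32, adjusted p = 0.0547).

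The largest changes among the listed genes were in the aldo-keto reductases AKR1C1 and AKR1C2. This family reduces aldehydes, ketones and steroids and includes well-known NRF2 targets in human cells. AKR1C1 (ENSG00000187134, chromosome 10 from 4963253 to 4983283) was 79.8, 81.0 and 74.8 TPM in NC and 15.1, 15.7 and 16.5 TPM in the KD-labelled libraries. AKR1C2 (ENSG00000151632, chromosome 10 from 4987400 to 5018031) was 10.1, 8.49 and 10.8 TPM in NC and 3.42, 3.40 and 4.33 TPM in the KD-labelled libraries. AKR1C3 (ENSG00000196139, chromosome 10 from 5035354 to 5107686) was 8.69, 7.59 and 8.45 TPM in NC and 8.32, 8.60 and 6.69 TPM in the KD-labelled libraries. The groups were far apart for AKR1C1, apart for AKR1C2 and overlapping for AKR1C3, although the 3 genes lie side by side. AKR1C1 fell by 79.9% in mean TPM, and by 2.25 on the log2 scale of TPM + 1 (standard error 0.0475, limma adjusted p = 1.61e-06). It ranked 33 from the lowest among the 13722 tested genes. AKR1C2 fell by 62.0% in mean TPM (log2 fold change of TPM + 1 -1.19, standard error 0.116, limma adjusted p = 0.000537). The added 1 makes the log2 value smaller in size than the percentage implies. AKR1C3 did not pass (log2 fold change -0.06, 95% interval -0.31 to 0.18, adjusted p = 0.662). The ratio of AKR1C1 to AKR1C3 was 9.57 ± 0.970 in NC and 2.03 ± 0.373 in the KD-labelled libraries (SD, n = 3 each).

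AKR1C1 and AKR1C2 share sequence, so their levels depend in part on how the authors' counting split common reads. Of the 150-base stretches of its principal transcript, AKR1C1 shares 11.3% with AKR1C2, AKR1C2 shares 20.6% with AKR1C1, and AKR1C3 shares 1.33% with AKR1C2. Summed, the 3 genes were 96.6 ± 2.26 TPM in NC and 27.3 ± 0.457 TPM in the KD-labelled libraries (SD, n = 3 each). The sum fell by 1.78 on the log2 scale. AKR1B1 (chromosome 7 from 134442350 to 134459284), aldose reductase, was by far the most abundant of the family at 1375, 1398 and 1383 TPM in NC and 946, 968 and 953 TPM in the KD-labelled libraries. The groups did not overlap, and AKR1B1 fell by 0.54 on the log2 scale (standard error 0.0147, limma adjusted p = 4.37e-06). Outside the listed genes the family was mixed. AKR1A1 fell (log2 fold change -0.25, adjusted p = 0.00200) and AKR7A2 rose (0.37, adjusted p = 0.00181). AKR1B10 (-0.18, adjusted p = 0.255) and AKR1B15 (-0.21, adjusted p = 0.499) did not pass.

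Ferritin stores iron in a shell of heavy and light chains, and the chains changed unequally. The heavy chain FTH1 (chromosome 11 from 61959718 to 61967660), which oxidises iron, was 10064, 9955 and 9811 TPM in NC and 7539, 7739 and 7764 TPM in the KD-labelled libraries. The light chain FTL (chromosome 19 from 48965301 to 48966878) was 6393, 6289 and 6457 TPM in NC and 6305, 6308 and 6250.3 TPM in the KD-labelled libraries. FTH1 was lower in each KD-labelled library than in each NC library, while the FTL groups overlapped. FTH1 fell by 0.37 on the log2 scale (standard error 0.0156, limma adjusted p = 2.00e-05). FTL had a log2 fold change of -0.02 (standard error 0.0125, adjusted p = 0.245), and its sign depended on the scaling, at 0.05 with median-of-ratios (adjusted p = 0.0174) and -0.13 with quantile normalization (adjusted p = 0.000140). The ratio of FTH1 to FTL, which a scaling factor per library leaves as it is, was 1.56 ± 0.0343 in NC and 1.22 ± 0.0237 in the KD-labelled libraries (SD, n = 3 each). The 25 FTH1 pseudogenes in the table reached at most 1.72 TPM each.

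**Figure D3:**
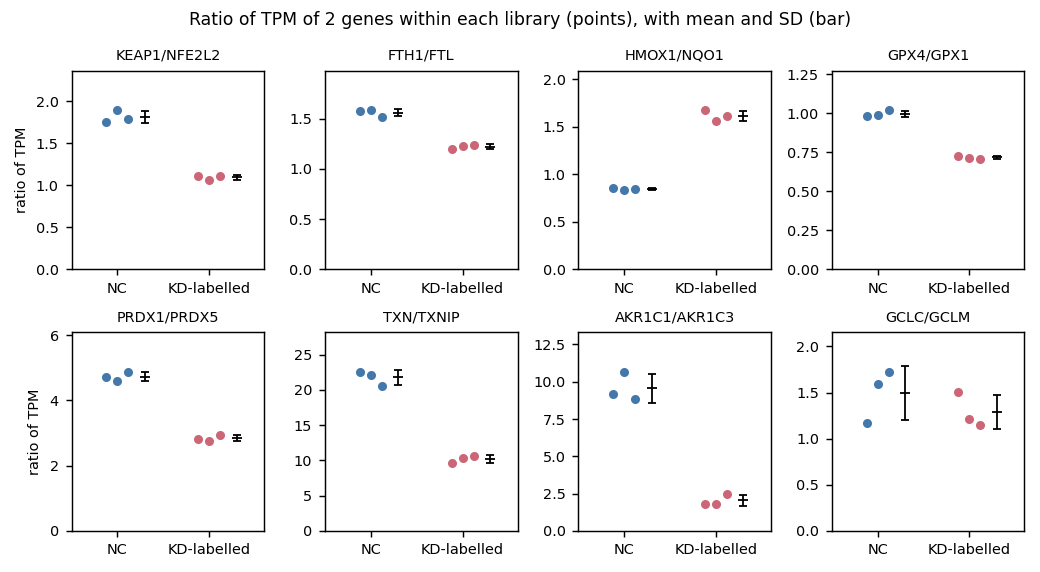
Ratio of the TPM of 2 genes within each library (points, replicates 1 to 3 from left to right), with the mean and SD of 3 libraries per group; every axis starts at 0. The groups are apart in 7 of the 8 ratios, such as KEAP1/NFE2L2 at 1.81 in NC and 1.10 in the KD-labelled libraries, and overlap for GCLC/GCLM.

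A further 115 genes were read from a longer list, 103 of the same pathways and 12 that encode oxidant-producing enzymes. Of the 87 that reached the limit of 1 TPM, 45 passed, 30 lower and 15 higher, against 36.1% of all tested genes, with a median log2 fold change of -0.08 against -0.06 over all tested genes. Without the oxidant-producing enzymes, 43 of 85 passed, 28 lower and 15 higher. The split of the 87 depended on the scaling, as that over all tested genes did, with 22 lower and 21 higher under median-of-ratios and 23 lower and 19 higher under quantile normalization. The largest difference was a rise of SOD3, the extracellular superoxide dismutase, from 1.0, 1.56 and 1.73 TPM to 3.72, 4.17 and 4.87 TPM (log2 fold change 1.12, limma adjusted p = 0.00212). GPX3, the secreted glutathione peroxidase, fell from 2.39, 2.15 and 3.06 TPM to 0.62, 0.37 and 1.32 TPM (log2 fold change -1.02, limma adjusted p = 0.0134). ALDH1A3, an aldehyde dehydrogenase that makes retinoic acid, had a log2 fold change of -0.87, and GSTO1, an omega-class glutathione transferase, of -0.71 (limma adjusted p = 7.41e-06 and 1.92e-05). SQSTM1, the autophagy receptor p62 that binds KEAP1 and is itself an NRF2 target, fell from 887, 906 and 900 TPM to 521, 548 and 549 TPM (log2 fold change -0.73, limma adjusted p = 7.41e-06).

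TXNIP, the inhibitor of thioredoxin, moved against its partner. It was 46.6, 47.6 and 50.7 TPM in NC and 82.3, 79.7 and 79.7 TPM in the KD-labelled libraries, with no overlap (log2 fold change 0.73, limma adjusted p = 5.12e-05). The ratio of TXN to TXNIP was 21.8 ± 1.02 in NC and 10.2 ± 0.533 in the KD-labelled libraries (SD, n = 3 each). BACH1, a repressor at antioxidant response elements that competes with NRF2, was 4.84, 6.29 and 5.13 TPM in NC and 5.09, 5.53 and 5.37 TPM in the KD-labelled libraries, which overlapped (adjusted p = 0.928). Of the 9 other tested regulators, 4 fell and 0 rose, against 24.0% lower and 12.1% higher of all tested genes. Of the 10 other tested NADPH genes, 0 fell and 4 rose, which were PGLS (log2 fold change 0.44), H6PD (0.32), IDH2 (0.28) and RPE (0.23), named after their values were seen. RPE, which lies between the oxidative and non-oxidative branches, did not pass without NC replicate 2, NC replicate 3, KD-labelled replicate 1 or KD-labelled replicate 2 (adjusted p = 0.0666, 0.0722, 0.0672 and 0.0701).

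Over all tested genes, 24.0% were lower and 12.1% higher. Of the remaining genes, 9 glutathione genes fell and 4 rose among 26 tested (34.6% and 15.4%). Among 13 tested thioredoxin and superoxide genes, 3 fell and 4 rose (23.1% and 30.8%). Carbonyl and drug detoxification genes numbered 6 lower and 1 higher among 16 tested (37.5% and 6.25%). Haem and iron genes numbered 6 lower and 2 higher among 11 tested (54.5% and 18.2%). The 2 that rose were TFRC, the transferrin receptor, and BLVRA, a biliverdin reductase, with log2 fold changes of 0.23 and 0.24. Both were named after their values were seen.

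**Figure D4:**
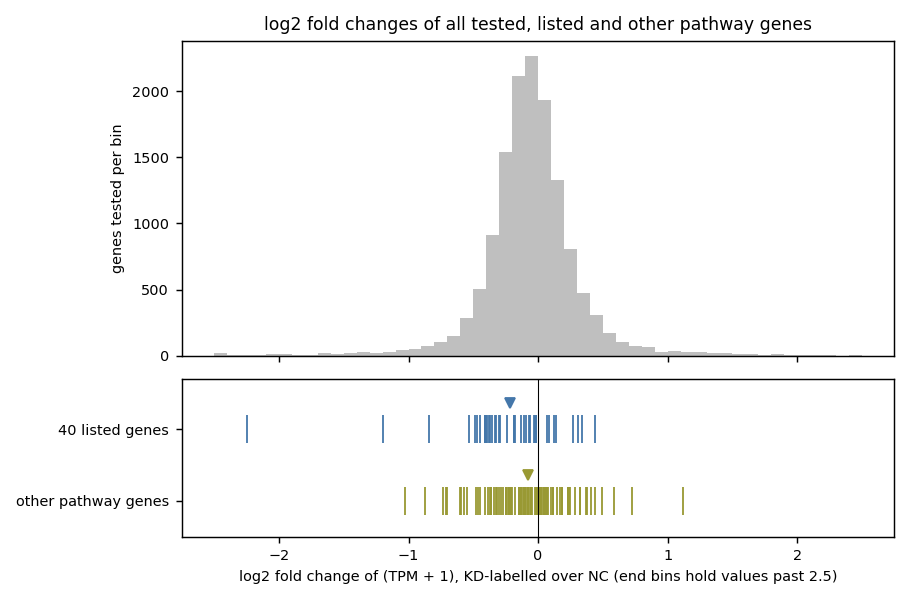
Above, the number of all 13722 tested genes by log2 fold change of TPM + 1, KD-labelled over NC; below, each of the 40 listed genes and 87 other pathway genes as a tick, with triangles at their medians of -0.22 and -0.08. Most listed genes lie left of 0, and AKR1C1 and AKR1C2 stand furthest left among them.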

How the data were processed

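RNA-seq of 3 NC and 3 KD-labelled U87-MG libraries was analysed, with groups taken from the sample labels. The authors deposited TPM per gene with 2 decimals in a single table, and 0 columns lacked a sample. The submitters' processing notes name fastp, RSEM and the build GRCh38.p13, and versions and annotation are not given in the sources used here. TPM is a share of each library and keeps no depth, so read depth is unknown and counting errors cannot be given.

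Genes whose mean reached 1 TPM were tested on log2(TPM + 1) with limma 3.58.1 (lmFit, then eBayes with a trend in the prior variance) in R 4.3.3, with group as the only term. The pseudocount understates fold changes of low genes. Each adjusted p in the text is from limma, two-sided, with Benjamini-Hochberg adjustment over all tested genes, and the threshold was 0.05. The procedure was tested on simulated data in which few or no genes changed, in balanced directions. The real data differ from that setting, as 36.1% of all tested genes passed, more of them lower than higher.

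Symbols came from a gene name table, except that of SOD2 (ENSG00000112096), taken from GENCODE 29, which lists another locus under that symbol. GENCODE 29 also gave the coordinates (GRCh38). GSTT1 is not analysed here. The genes, lists and tests were chosen with earlier results of these data known. TPM of every library is printed for listed genes that passed and changed by at least 0.5 on the log2 scale, and for NFE2L2, KEAP1, NQO1, HMOX1, GCLC, GCLM, SLC7A11, TXNRD1, SRXN1, SOD2, FTH1 and FTL. Other pathway genes are named if among the 6 largest changes that passed, with TXNIP and BACH1, and some results are not reported here. AKR1C3, TXNRD2, AKR1A1, AKR1B10, AKR1B15, AKR7A2 and RPIA were added after their values were seen.

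Alternatives varied the pseudocount (0.1, 0.5), the limit on low values (none, 0.1, 5 TPM), the scaling, the trend, a replicate term, the gene types, pseudogene and AKR1C sums, the threshold (0.01) and each library left out in turn.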

Additional observations from a re-analysis of the deposited data

How the results depend on the processing

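Of the 40 tested genes, 25 kept their direction and their side of the threshold in each alternative that varied the data or the fit, 19 lower and 6 higher. Over all alternatives, with the 0.01 threshold included, the number of the 40 genes that passed was between 26 and 32, of which between 19 and 26 were lower and between 5 and 9 higher. With mitochondrial transcripts left out, 26 were lower and 6 higher, and under median-of-ratios scaling 19 were lower and 9 higher. The median log2 fold change of the listed genes, -0.22, became -0.19 with no limit on low values and with a limit of 5 TPM, -0.15 under median-of-ratios scaling, -0.18 under quantile normalization and -0.24 among protein-coding genes, and was between -0.25 and -0.20 with single libraries left out, the lowest without KD-labelled replicate 2. With the AKR1C genes summed, 1 gene passed with a log2 fold change beyond 1. The number of other pathway genes past that size, 2, was 0 with a limit of 5 TPM, 1 under median-of-ratios scaling and at an adjusted p under 0.01, and between 1 and 2 with single libraries left out; it was 1 without NC replicates 1 or 3 or KD-labelled replicates 1 or 2.

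Signs reversed for genes near 0. With single libraries left out, GCLM was between -0.170 and 0.023 (above 0 without NC replicate 1), AKR1C3 between -0.125 and 0.035 (above 0 without KD-labelled replicate 3) and BACH1 between -0.079 and 0.081 (above 0 without NC replicate 2 or KD-labelled replicate 1). Under median-of-ratios and quantile scaling, GSR was 0.037 and 0.043, PRDX4 0.051 and 0.040, IDH1 0.052 and 0.075, and BACH1 0.045 and 0.048, while FTL was 0.049 under the former. The rise of BLVRB did not pass without NC replicates 1, 2 or 3 or KD-labelled replicates 1 or 2 (adjusted p from 0.0593 to 0.103). Except where the construction shows it, the cause was not tested. Same-numbered libraries did not deviate together (correlations from -0.02 to 0.03), so the numbers were not taken as pairs. With the replicate number as a block, 27 listed genes passed, 21 lower and 6 higher (SLC7A11, GCLC and BLVRB did not), and 40 other pathway genes. The depth is unknown, so a limit of detection cannot be given.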
